A study of Oryza sativa with 12 samples.

Results

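The loci described here are 36 rice loci that were silent or nearly so at 29 °C and clearly measured at 45 °C, of 42004 loci in the deposited expression table. A locus was taken where its mean FPKM (fragments scaled to transcript length and to library size) was under 1 in both groups kept at 29 °C and 10 or more in both groups held at 45 °C. Of 39 such loci, 3 were left out, LOC_Os03g14180, LOC_Os04g01740 and LOC_Os05g46480. The same FPKM values chose the loci, so the difference between 45 °C and 29 °C is described below and not tested.

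RNA was sequenced from whole rice seedlings in 12 libraries, 3 per group. The groups were the heated line labelled as a knock out of GRP3 and GRP162 (dm_45C), heated wild type ZH11 (WT_45C), the same knock out line kept at 29 °C (dm_29C) and unheated wild type (WT_29C). ZH11 is a japonica cultivar, seedlings were 8 days old when heat began, and every group grew in Kimura B nutrient solution. The labels disagree on how long the heat lasted, giving 18 h in one field and 42 h in another, and neither could be preferred. The number 42 also stands in every column name, those of the unheated libraries included, and its meaning there is not stated. The last number of the mutant genotype label changes with the replicate while the titles name a single line, and the table columns coded GM were taken as that line because no other line remained once the WT columns were assigned. Nothing states whether the replicates come from different cultures, and p-values then measure the spread between libraries, which may be technical.

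Plants answer high temperature by releasing heat stress transcription factors, which bind short repeated elements in promoters and switch on chaperone genes from a very low level. Small heat shock proteins are among the most tightly controlled of these genes. They hold unfolding proteins in a soluble state until the ATP-driven chaperones HSP70 and ClpB refold them. Long or severe heat also draws in the abscisic acid pathway, in which type 2C protein phosphatases of clade A act as brakes.

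The deposited table gives no read counts, so the depth behind each value is unknown. FPKM summed to between 558435 and 599861 per library. GRP162 (LOC_Os12g43600) stood at 12466, 746 and 699 FPKM in dm_45C and 2368, 1605 and 3719.8 in WT_45C, and at 3288, 218 and 265 in dm_29C and 1121, 1002 and 1033 in WT_29C, each time in the order of replicates 1 to 3. GRP3 (LOC_Os03g46770) stood at 17604, 10888 and 14023 in dm_45C and 16274, 14427 and 16321 in WT_45C, and at 4340.1, 1086 and 1355 in dm_29C and 5066, 3879 and 5489 in WT_29C. The identifiers of both genes were entered by hand, and no table used here checks them. At the locus taken as GRP162, replicate 1 of both groups labelled dm lay above every wild type library of its temperature. Replicates 2 and 3 lay below them all. A knock out label gives no RNA level, and whether the 2 replicate 1 libraries match theirs was not tested. Results are also given without these 2 libraries, and dm stands for the libraries so labelled. GRP3 in dm_45C overlapped its range in WT_45C. Without the 2 libraries 32 loci met the rule, 30 of them among the 36. Of 3 root markers in the table only the silicon channel LSI1 reached an FPKM of 1, although the label reads whole plant, whereas 5 of 5 leaf markers did. Summed FPKM of the root markers was 2.26 to 6.45 in dm_45C and 1.36 to 2.14 in WT_45C, against 36.3 to 52.6 in dm_29C and 24.4 to 38.7 in WT_29C, and that of the leaf markers was 1869.5 to 4821 in dm_45C and 2458 to 4074 in WT_45C, against 5868.5 to 7823 in dm_29C and 3679.7 to 9807 in WT_29C. The part of such shifts in the results was not tested. In such bulk RNA, a change in the number of cells that use a gene and a change in RNA per cell cannot be told apart.

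Of the 42004 loci, 22823 had a mean FPKM under 1 in both groups at 29 °C. Almost all of these stayed low in heat, with 21417 (93.8%) under 1 in both groups at 45 °C as well. Another 689 lay at 1 or more but under 10 in both, and 39 (0.171%), including the 3 left out, reached 10 in both. A further 15 reached 10 in dm_45C alone and 21 in WT_45C alone, but 11 and 13 of these had a mean of 5 or more in the other genotype. Silence followed by strong expression was thus uncommon among loci that were low at the start. Of the 22823, however, 13263 were listed at 0 in all 12 libraries, and the shares count these too. At the 29 °C limit, LOC_Os01g64120 was just inside with 0.923 in dm_29C, LOC_Os03g49430 with 0.913 in WT_29C and LOC_Os04g47360 with 0.883 in WT_29C. Just outside lay LOC_Os09g09040 (1.06 in WT_29C) and LOC_Os04g06590 and LOC_Os12g25090 (both 1.07 in dm_29C). At the 45 °C limit, LOC_Os08g43290 was just inside with 10.1 in WT_45C and LOC_Os03g03810 with 10.6 in dm_45C, and LOC_Os07g13980 entered with a dm_45C mean of 10.6. Just outside lay LOC_Os04g20749 (9.94 in dm_45C), LOC_Os06g13720 (9.40 in dm_45C) and LOC_Os05g47730 (9.16 in WT_45C). The plot of the higher 29 °C mean against the lower 45 °C mean shows the chosen loci at the upper left edge of the cloud of all loci.

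**Figure D1:**
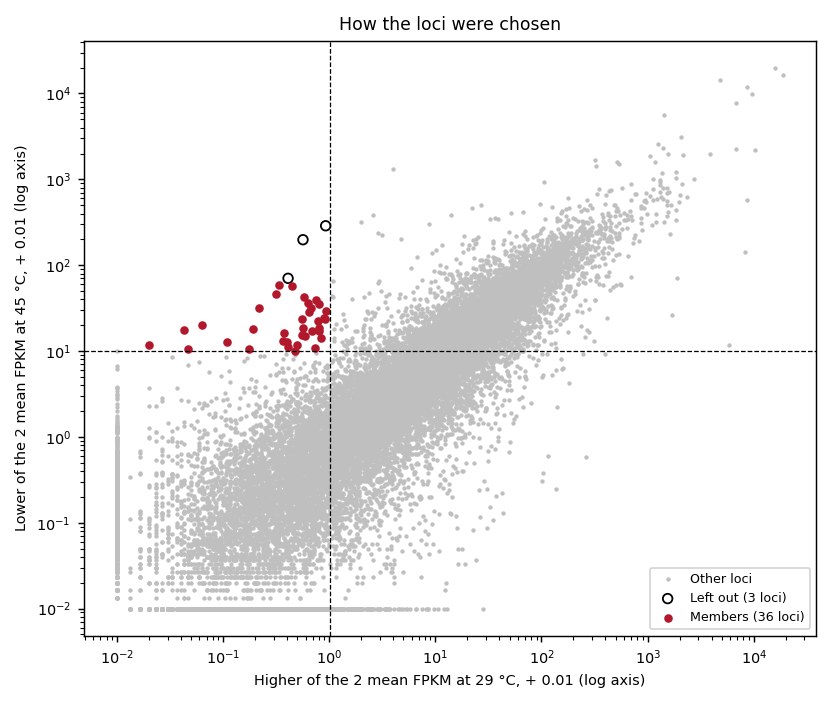
Lower of the group means at 45 °C (dm_45C or WT_45C, FPKM + 0.01, log axis) against the higher of the group means at 29 °C (dm_29C or WT_29C, FPKM + 0.01, log axis), 1 point per locus, loci at 0 in both left out. Dashed lines mark the limits of 10 and 1, the 36 chosen loci are red and the 3 loci left out are open circles, which lie above every red point.

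The chosen loci reached moderate levels. Their mean FPKM ran from 10.6 to 133 in dm_45C with a median of 23.0, and from 10.1 to 100.3 in WT_45C with a median of 24.6. At 29 °C the means ran from 0.01 to 0.923 in dm_29C (median 0.362) and from 0 to 0.913 in WT_29C (median 0.375). The ratio of the mean at 45 °C to that at 29 °C had a median of 86.9 in the dm libraries, with a range of 15.2 to 1275 over 36 loci. In the wild type its median was 66.3, with a range of 24.2 to 3760 over the 33 loci with a mean above 0 in WT_29C. The other 3, LOC_Os03g04010, LOC_Os06g12370 and LOC_Os07g13980, are listed at 0 in all 3 WT_29C libraries, so no ratio is given. These ratios rest on values near the lowest the table can show, and the largest of them follow from small denominators. On the log2(FPKM + 1) scale, which damps such ratios, the difference had a median of 3.76 in the dm libraries and 3.96 in the wild type. All 36 loci took part in the fit of all 20305 measurable loci. The limma adjusted p was under 0.05 for 34 of them in each genotype, which the rule brings about and which carries no weight, where 15.3% of all tested loci were higher in dm_45C than in dm_29C and 13.3% in WT_45C than in WT_29C.

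**Figure D2:**
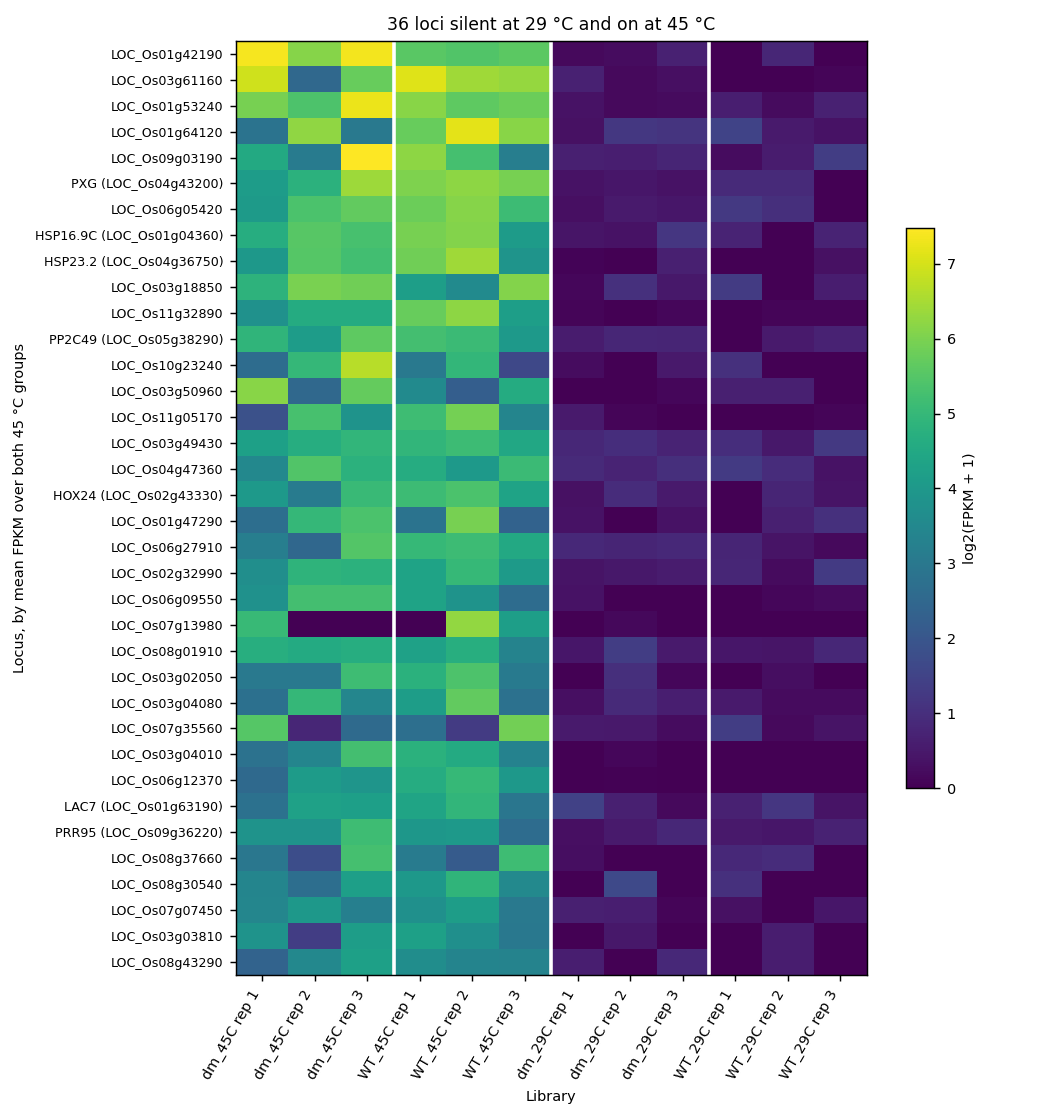
Level of the 36 loci (rows, from the highest to the lowest mean over both 45 °C groups) in the 12 libraries (columns, 3 each of dm_45C, WT_45C, dm_29C and WT_29C), as log2(FPKM + 1) in colour. The 6 columns at 45 °C are bright with uneven patches and the 6 columns at 29 °C are dark throughout, and LOC_Os07g13980 is dark in 3 of the heat columns.

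Libraries at 45 °C lay above libraries at 29 °C at nearly every chosen locus. The groups did not overlap at 35 of 36 loci in the dm libraries and 34 of 36 in the wild type, where 23.7% and 19.2% of all tested loci did so in the same direction, and this too is brought about by the rule. At 34 loci the lowest of the 6 libraries at 45 °C was above the highest of the 6 at 29 °C (10.8% of all tested loci). The exceptions were LOC_Os07g13980 and LOC_Os07g35560. Silence was not complete at every locus, since 21 of the 36 were under 1 FPKM in each of the 6 libraries at 29 °C while the others reached 1 in at least 1 of them. Likewise 12 loci reached 10 FPKM in all 6 libraries at 45 °C, 14 in 4 or 5 of them, and 10 in 3 or fewer.

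A published gene name could be attached to 7 of the 36 loci. Such a name had to appear in the gene table of RefSeq, on the chromosome that the locus identifier gives. No table used here pairs names with these identifiers, so the names were entered by hand, and sharing a chromosome does not show that a name belongs to its locus. All gene names below, and the roles given with them, are therefore provisional. The other 29 are given by identifier alone, because the table pairs no locus with a product.

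Among the chaperones, HSP23.2 (LOC_Os04g36750, chromosome 4), a small heat shock protein, had 14.9, 44.3 and 35.8 FPKM in dm_45C and 0.06, 0 and 0.57 in dm_29C. In the wild type it had 57.6, 84.3 and 13.5 in WT_45C and 0, 0 and 0.25 in WT_29C. The means were 31.7 ± 15.1 in dm_45C and 51.8 ± 35.7 in WT_45C (SD, n = 3 each). Every heated library lay far above every unheated one, and replicate 1 of dm_45C and replicate 3 of WT_45C were the low ones of their groups. HSP16.9C (LOC_Os01g04360, chromosome 1), a small heat shock protein of the cytosolic class I, had 24.5, 45.9 and 38.6 in dm_45C and 0.33, 0.29 and 1.26 in dm_29C. In the wild type it had 60.2, 67.4 and 16.3 in WT_45C and 0.68, 0 and 0.67 in WT_29C. The 6 heated libraries fell into the same order for both genes, with WT_45C replicate 2 highest, followed by WT_45C replicate 1, dm_45C replicates 2, 3 and 1, and WT_45C replicate 3. No other chosen locus had exactly that order, but LAC7 (LOC_Os01g63190) and LOC_Os11g32890 differed from it only in the order of the lowest 2 libraries. WT_45C replicate 2 was the highest heated library at 17 of the 36 loci.

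HSP16.9C belongs to a cluster of closely similar genes, whose common reads may have been split between them in counting, so its level is uncertain. Its neighbours HSP16.9A (LOC_Os01g04370) and HSP16.9B (LOC_Os01g04380) reached means of 382 and 204 in dm_45C and 433 and 268 in WT_45C. They were not chosen because they already stood at 2.56 and 2.71 in dm_29C and 1.83 and 4.79 in WT_29C. Of 21 listed small heat shock protein loci, 2 were chosen, 1 had been left out, and 12 reached 10 in both heated groups but had a mean of 1 or more in at least 1 unheated group. Another 4 were silent at 29 °C without reaching 10 in both heated groups, among them LOC_Os11g13980, listed at 0 in all unheated libraries and at means of 3.41 in dm_45C and 8.03 in WT_45C. The disaggregase CLPB1 (LOC_Os05g44340) had means of 22.8 in dm_45C and 28.8 in WT_45C, against 1.37 in dm_29C, which kept it out, and 0.817 in WT_29C.

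None of the 21 listed HSP70 loci, 8 HSP90 loci, 3 ClpB disaggregases, 23 heat stress factors, 5 immunophilins and other thermotolerance factors, 3 loci of galactinol and raffinose synthesis or 5 DREB transcription factors was chosen, and 1 HSP90 locus was among those left out. Another listed HSP90 locus was not analysed here. Of the HSP70 loci, 12 were already measurable at 29 °C and the other 9 stayed under 10 at 45 °C. The heat stress factor HSFA2A (LOC_Os03g53340), silent at 29 °C, had means of 3.92 in dm_45C and 2.44 in WT_45C, against 0.517 in dm_29C and 0.247 in WT_29C. Of 19 loci for late embryogenesis abundant proteins, dehydrins and seed proteins, none but LEA3 (LOC_Os05g46480), which was left out, met the rule. The dehydrin RAB16D (LOC_Os11g26750) came close, with 6.39 in dm_45C and 13.6 in WT_45C, against 0.353 in dm_29C and 0.02 in WT_29C.

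Some of the named loci are tied to abscisic acid and water stress. PP2C49 (LOC_Os05g38290, chromosome 5) carries the name of a type 2C protein phosphatase of clade A, a class that restrains abscisic acid signalling. It had 29.0, 16.4 and 48.1 FPKM in dm_45C and 0.47, 0.75 and 0.7 in dm_29C, against 37.2, 33.5 and 15.1 in WT_45C and 0, 0.45 and 0.64 in WT_29C. The genotypes overlapped widely in heat, with means of 31.2 ± 15.9 in dm_45C and 28.6 ± 11.8 in WT_45C. HOX24 (LOC_Os02g43330, chromosome 2) carries the name of a homeodomain-leucine zipper transcription factor of a family linked to drought responses. It had 15.7, 7.72 and 32.8 in dm_45C and 34.0, 40.3 and 19.3 in WT_45C, and did not exceed 0.95 in any unheated library. Its 2 lowest heated libraries were both dm_45C.

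PXG (LOC_Os04g43200, chromosome 4) carries the name of a peroxygenase of the caleosin family, proteins that sit on lipid droplets and oxidise fatty acids. It had 16.7, 26.9 and 83.2 in dm_45C and 0.28, 0.38 and 0.29 in dm_29C, against 63.9, 72.3 and 60.3 in WT_45C and 0.87, 0.84 and 0 in WT_29C. The wild type libraries were close to each other at 45 °C, with a mean of 65.5 ± 6.16, while those of dm_45C spread on both sides of them, with a mean of 42.3 ± 35.8.

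PRR95 (LOC_Os09g36220, chromosome 9) carries the name of a pseudo-response regulator, a repressor within the circadian clock whose level moves through the day. It had 13.2, 13.3 and 34.9 in dm_45C and 0.23, 0.46 and 0.77 in dm_29C, against 14.7, 15.2 and 5.22 in WT_45C and 0.43, 0.37 and 0.65 in WT_29C. No label gives the hour of sampling, and its part in this difference was not tested. LAC7 (LOC_Os01g63190, chromosome 1) carries the name of a laccase, a copper enzyme of the cell wall that oxidises phenolic compounds. It was among the weakest of the chosen loci, with 5.94, 18.58 and 17.8 in dm_45C and 19.5, 29.6 and 6.66 in WT_45C, and it passed 1 in dm_29C replicate 1 (1.72) and WT_29C replicate 2 (1.26).

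The highest levels belonged to loci without a name here. LOC_Os01g42190 had 167, 68.9 and 163 FPKM in dm_45C and 46.9, 42.9 and 46.9 in WT_45C, and at most 0.75 in any library at 29 °C. It was the only chosen locus whose dm_45C libraries all lay above its WT_45C libraries, and no chosen locus had them all below. LOC_Os03g61160 had 121, 4.78 and 52.2 in dm_45C and 138, 84.3 and 78.4 in WT_45C, so that dm_45C replicate 2 was far below all the other heated libraries. Its mean in WT_29C was 0.0267, which makes its ratio of 3760 in the wild type the largest found, against 180.0 in the dm libraries. LOC_Os01g53240 had 61.2, 41.3 and 151 in dm_45C and 69.5, 48.1 and 55.0 in WT_45C, with no unheated library above 0.6.

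LOC_Os01g64120 had 6.21, 74.6 and 7.19 in dm_45C and 52.2, 143 and 70.1 in WT_45C, and in dm_45C it was held up by replicate 2. LOC_Os09g03190 had 22.2, 7.72 and 178 in dm_45C and 72.9, 37.7 and 8.25 in WT_45C, with dm_45C replicate 3 above the rest. LOC_Os06g05420 was steadier, with 15.9, 39.8 and 50.8 in dm_45C and 55.3, 69.0 and 34.0 in WT_45C. Between libraries of equal replicate number, which are not shown to be paired, LOC_Os01g64120 was lower in dm_45C than in WT_45C in 3 of 3 comparisons. LOC_Os09g03190 and LOC_Os06g05420 had differences in both directions.

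LOC_Os03g18850 had another order of libraries, with 27.7, 62.2 and 56.8 in dm_45C and 17.5, 10.9 and 67.5 in WT_45C. Its highest heated library, WT_45C replicate 3, was the lowest for HSP23.2 and HSP16.9C, and its lowest, WT_45C replicate 2, was their highest. LOC_Os07g35560 was likewise highest in WT_45C replicate 3, with 44.9, 0.75 and 4.97 in dm_45C and 5.71, 1.46 and 58.6 in WT_45C, and second highest in dm_45C replicate 1. LOC_Os11g32890, like the heat shock proteins, was highest in WT_45C replicates 2 and 1, with 12.8, 23.5 and 23.5 in dm_45C and 52.3, 73.0 and 17.1 in WT_45C, and at most 0.09 in any unheated library.

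**Figure D3:**
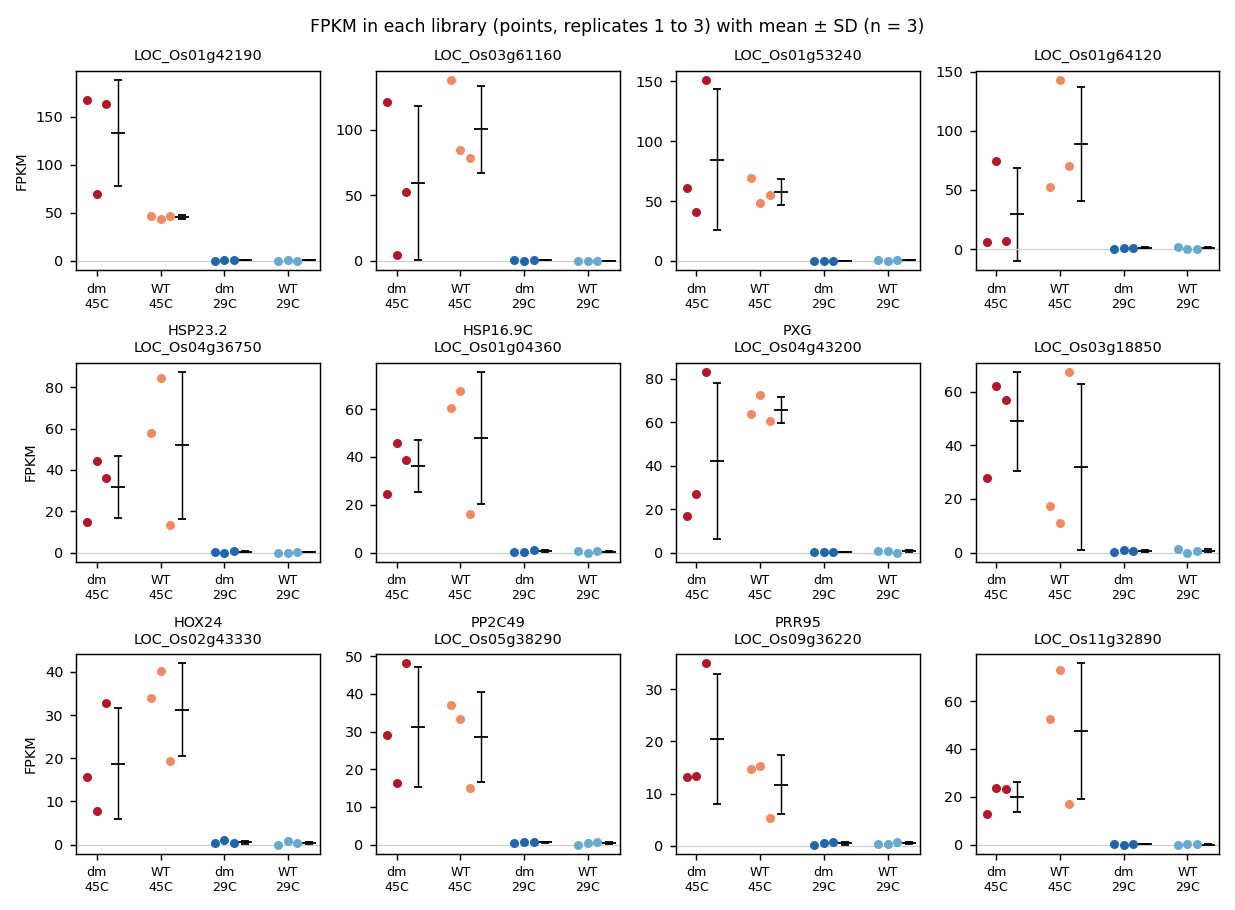
FPKM of 12 of the 36 loci in each library (points, replicates 1 to 3 from left to right) with the mean and SD of the 3 libraries beside them (bars), in dm_45C, WT_45C, dm_29C and WT_29C, on axes that differ between panels. All points at 29 °C lie near 0, and points at 45 °C spread widely within most groups, with the 3 dm_45C points of LOC_Os01g42190 (68.9 to 167) above its 3 WT_45C points (42.9 to 46.9).

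Some loci met the rule with 3 or fewer of their 6 heated libraries at 10 or more. LOC_Os07g13980 is listed at 31.7, 0 and 0 in dm_45C and 0, 75.4 and 17.3 in WT_45C, and it was the only chosen locus listed at 0 in any heated library. LOC_Os07g35560 and LOC_Os08g37660 reached 10 in 2 of the 6 heated libraries each. LOC_Os08g37660 had 6.76, 2.43 and 37.8 in dm_45C and 7.59, 3.41 and 34.4 in WT_45C, so that replicate 3 was the high one in both genotypes. LOC_Os10g23240 had 5.29, 30.9 and 101.39 in dm_45C and 7.17, 30.2 and 2.09 in WT_45C, and LOC_Os01g47290 had 5.51, 30.5 and 40.3 in dm_45C and 6.15, 60.8 and 4.07 in WT_45C, each with 3 libraries at 10 or more. At the other end, LOC_Os03g49430 was even across libraries, with 17.87, 24.3 and 29.3 in dm_45C and 29.5, 33.9 and 21.3 in WT_45C. LOC_Os08g01910 was even in dm_45C with 25.0, 22.8 and 24.5, but less so in WT_45C with 18.3, 24.6 and 9.09.

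Heated libraries of the same group differed widely at the chosen loci. The coefficient of variation had a median of 66.3% in dm_45C and 50.8% in WT_45C. For the 7457 other loci whose heated means lay in the same range, the medians were 17.0% in dm_45C and 15.4% in WT_45C. For the 976 of these that were called higher in heat in both genotypes, they were 19.7% in dm_45C and 16.8% in WT_45C. Calling by limma favours loci whose libraries lie close together. The rule for the chosen loci used group means alone, which uneven libraries can also bring over the limit. Part of the gap to the 976 loci may therefore come from how each set was picked, and that part was not measured. No test was made of these descriptions. Between the highest and the lowest of the 6 heated libraries the chosen loci differed by a median ratio of 6.06 over the 35 loci with no heated library at 0.

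The summed FPKM of the 36 loci was 868, 859.6 and 1567 in dm_45C and 1156, 1452 and 840.0 in WT_45C, against 12.1, 17.3 and 13.9 in dm_29C and 18.05, 12.4 and 12.1 in WT_29C. In heat this was 0.145% to 0.270% of the library sum. Of the chosen loci, 17 were highest in WT_45C replicate 2 and 10 in dm_45C replicate 3, while 33 were lowest in dm_45C replicate 1, dm_45C replicate 2 or WT_45C replicate 3. The number at 10 FPKM or more was 22, 24 and 31 in dm_45C replicates 1 to 3 and 31, 32 and 22 in WT_45C replicates 1 to 3. Libraries thus differed in the summed level of the chosen loci and in how many reached 10 FPKM, in both genotypes.

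The genotypes were compared at each temperature, since the rule set no condition on that difference. It did require both genotypes to be high in heat and low without it, which leaves out loci that only 1 of them switched on. At 45 °C, 0 of the 36 loci passed (limma, adjusted p under 0.05 over 20305 loci), where 4 of all tested loci did (0.0197%). The lowest adjusted p was 0.32, for LOC_Os01g42190. At an unadjusted p under 0.05 there were 5 of 36, 2 higher and 3 lower in dm_45C, where 7.97% of all tested loci lay under that value. The log2 differences between dm_45C and WT_45C ran from -2.31 to 1.57 with a median of -0.27, beside a median of 0.06 over all tested loci. Of the 36, 25 were below 0, while by group means 21 were higher in WT_45C and 15 in dm_45C. The share below 0 over all tested loci was not counted. Many chosen loci were high or low in the same libraries, so they are not separate replicates of this difference. Groups did not overlap at 1 of the 36 loci, where 13.3% of all tested loci did not.

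The 5 loci were led by LOC_Os01g42190, with a log2 difference of 1.42 ± 0.327 (SE) and a mean of 133 ± 55.5 FPKM in dm_45C and 45.6 ± 2.32 in WT_45C (SD, n = 3 each). Without dm_45C replicate 2 its log2 difference was 1.83 and passed (limma adjusted p = 0.0382), against 0.0382 to 0.762 over 25 alternatives. LOC_Os01g64120 was lower in dm_45C, by a log2 difference of -2.31 ± 0.726 (limma adjusted p = 0.488), with means of 29.3 ± 39.2 in dm_45C and 88.5 ± 48.1 in WT_45C. It passed as well without dm_45C replicate 2, at -3.41 (limma adjusted p = 0.0382, against 0.0382 to 0.926 over 25 alternatives). For LOC_Os06g12370 the log2 difference was -1.02 ± 0.368, for LOC_Os11g32890 it was -1.04 ± 0.412, and for LOC_Os06g09550 it was 1.15 ± 0.438, with limma adjusted p of 0.552, 0.575 and 0.564. The size of each of these differences changed when single libraries were left out. Its sign stayed the same in all 25 alternatives, and none of them passed. The difference of LOC_Os06g12370 was -0.53 without dm_45C replicate 1, and the same without both dm replicate 1 libraries. That of LOC_Os11g32890 was -0.62 without WT_45C replicate 2 and -1.64 without WT_45C replicate 3. That of LOC_Os06g09550 was 0.66 without WT_45C replicate 3. LOC_Os06g27910, which had 8.27, 4.60 and 43.4 in dm_45C and 31.2, 33.9 and 21.93 in WT_45C, passed without dm_45C replicate 3 (log2 difference -2.04, limma adjusted p = 0.0149), against -1.16 and 0.638 with all libraries and 0.0149 to 0.937 over 25 alternatives. Without dm_45C replicate 2 its log2 difference was -0.54 (limma adjusted p = 0.788). Without both dm replicate 1 libraries, in which the locus taken as GRP162 lay above the wild type, 0 of 35 tested loci passed by limma, with a lowest adjusted p of 0.548.

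The named loci gave no call either. HSP23.2 differed by -0.48 ± 0.548 and HSP16.9C by -0.20 ± 0.463 on the log2 scale between dm_45C and WT_45C. PP2C49 differed by 0.09 ± 0.386, HOX24 by -0.86 ± 0.429, PXG by -0.94 ± 0.440, PRR95 by 0.74 ± 0.405 and LAC7 by -0.30 ± 0.522. The limma adjusted p of these 7 lay between 0.633 and 0.973. The standard errors had a median of 0.518 over the 36 loci, beside 0.252 over all tested loci, so a difference had to be larger at these loci than elsewhere to pass.

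At 29 °C, 0 of the 36 loci differed between dm_29C and WT_29C (limma adjusted p under 0.05), where 0.241% of all tested loci did, and 0 had an unadjusted p under 0.05 (9.78% of all tested loci). The log2 differences ran from -0.50 to 0.38. Since the rule held both group means under 1 FPKM at that temperature, the comparison has little to measure. Large differences could not occur, so the counts of 0 carry no weight. The difference between the heat responses of both genotypes passed at 0 of 36 loci (limma adjusted p under 0.05, 0.0148% of all tested loci), and its unadjusted p was under 0.05 at 2 of 36 (5.12% of all tested loci).

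Rice locus identifiers carry the chromosome and a number that increases along it, so their order shows which loci neighbour each other. The 36 loci were spread over 11 of 12 chromosomes. Chromosome 3 held 8 of them and chromosome 1 held 6, against 0 on chromosome 12. The table lists 4631 loci for chromosome 3 and 5345 for chromosome 1, but only 1 of 3358 loci on chromosome 5 was chosen. These counts do not include the 3 loci left out, LOC_Os03g14180, LOC_Os04g01740 and LOC_Os05g46480, which lie on chromosomes 3, 4 and 5. Of the 36 loci, 0 had another chosen locus within 5 places in the order of loci, where 0.848% of all loci had one that near, so 0 is close to the share over all loci. Within 10 places it was 2 of 36 (5.56%), where 1.68% of all loci had one, and within 20 places 3 of 36 (8.33%), where 3.30% did. The closest pair was LOC_Os03g04010 and LOC_Os03g04080, 7 places apart, with LOC_Os03g03810 another 17 places away. LOC_Os03g04010 had 6.07, 9.55 and 36.8 in dm_45C and 26.21, 22.8 and 8.87 in WT_45C, whereas LOC_Os03g04080 had 5.76, 30.5 and 9.79 in dm_45C and 16.91, 50.6 and 5.99 in WT_45C, so that different libraries were high.

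**Figure D4:**
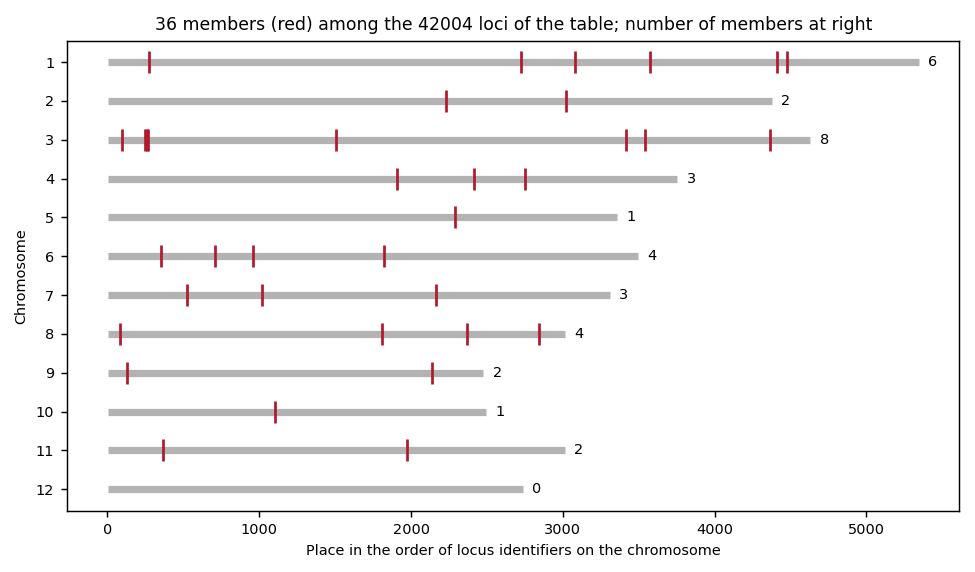
Place of the 36 loci (red marks) in the order of locus identifiers along each of the 12 chromosomes (grey bars, length in loci of the table), with the number of chosen loci at the right. Chromosome 3 holds 8, with 3 of them close together near its start, and chromosome 12 holds 0.

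Neighbours that were not chosen were also looked at. Of 223 tested loci within 5 places of a chosen locus, 38 (17.0%) were called higher in heat in both genotypes, where 9.71% of all tested loci were. With a neighbour counted once for each locus it flanks, the share was 16.8% around the chosen loci and 11.9% around the 1938 other loci called higher in both genotypes. No test was made, and the count includes HSP16.9A and HSP16.9B. At least 1 such neighbour was found for 21 of the 36 loci. The matching share among other loci was not counted, so this number does not show clustering. Among the neighbours picked out after their values were seen, LOC_Os03g18870 near LOC_Os03g18850 had means of 322 in dm_45C and 201 in WT_45C, against 21.3 in dm_29C and 24.2 in WT_29C. LOC_Os03g49440, next to LOC_Os03g49430, had 53.4 in dm_45C and 44.1 in WT_45C, against 2.21 in dm_29C and 3.40 in WT_29C. LOC_Os09g03200, next to LOC_Os09g03190, had 74.1 in dm_45C and 42.3 in WT_45C, against 2.12 in dm_29C and 1.45 in WT_29C.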

How the data were processed

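Gene expression was measured by sequencing poly(A) RNA from 12 rice libraries, 3 in each of 4 groups. Molecular identifiers and dUTP strand marking were used, per the labels' protocols. The deposited values are FPKM, 1 column per library, per the file headers. Tools listed, without their roles, in the submitters' processing notes are StringTie 1.3.4d, HISAT2 2.0.4, edgeR, DESeq2, UMI-tools and cutadapt 1.9. Build and annotation: not given in the sources used here. Coordinates and sequences were not used here. Depth is unknown, and no counting interval could be given.

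The loci, lists and gene names were chosen with earlier results of these data known. From the deposited FPKM, log2(FPKM + 1) was computed for the 20305 loci that reached 1 FPKM in 3 libraries or more. All 12 libraries entered a limma fit of 4 group means with an intensity trend and Benjamini-Hochberg adjustment over all 20305 loci (limma 3.58.1, R 4.3.3), after a run on simulated data. Other steps ran in Python 3.11.15 (numpy 2.4.6, pandas 2.3.3), and figures in matplotlib 3.10.9. Named in full were the 12 loci with the highest mean over both heated groups, loci on a list, loci called or nearest a limit, and, outside that rule and after their values were seen, those with a gene name or an uneven pattern. Of the names in the RefSeq table, 0 matched a locus identifier directly, so published names entered by hand were checked by symbol and chromosome. Deviations of libraries with equal replicate numbers were at most weakly correlated. The correlations were 0.106, 0.293 and 0.141 between dm_45C and WT_45C, and 0.131, 0.0979 and -0.0468 between dm_29C and WT_29C. Between dm_45C and dm_29C the correlations were 0.140, 0.0460 and 0.135, and none is given for unequal numbers. The labels state no pairing, and these values do not show one. The main fit left the number out, and an alternative took it as a block. Alternatives changed the pseudocount, filter, scaling, model, libraries left out and the limits of the rule.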

Additional observations from a re-analysis of the deposited data

How the results depend on the processing

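The count of loci that met the rule depended on its limits. Under a 29 °C limit of 0.5 it was 17 and under 2 it was 64, with a 45 °C limit of 5 it was 84 and of 20 it was 15, and 6 loci had every library on its side of both limits. Rescaling to equal totals or by median-of-ratios gave 37 loci, with all 36 among them, and group medians gave 25, of which 22 were shared. Leaving out each library in turn gave 29 to 39 loci, and 9 of the 36 were kept every time. Without both dm replicate 1 libraries 32 loci met the rule, 30 of them shared. Within 10 and 20 places, 2 and 3 of the 36 had another chosen locus near.

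None of the 36 was called between dm_45C and WT_45C in 23 of 25 alternatives. The exceptions were 2 calls without dm_45C replicate 2 (LOC_Os01g42190 and LOC_Os01g64120) and 1 without dm_45C replicate 3 (LOC_Os06g27910), so that leaving out 1 library gave 0 to 2 calls, and the cause was not tested. Array weights left LOC_Os01g42190 at a limma adjusted p of 0.0846. With the replicate block 0 of the 36 were called at 45 °C, at 29 °C or for the difference of the heat responses, and 0 with the block in the 45 °C groups alone, an alternative added after seeing the data. At 29 °C and for the difference of the heat responses the count was 0 in each of the 24 and 23 alternatives. The rule itself keeps differences at 29 °C small, so the count there carries no weight. With only the groups compared, 1 of the 36 could be tested at 29 °C. Over all tested loci, limma called 4 at 45 °C (1 to 44 over the alternatives), 49 at 29 °C (9 to 64) and 3 for the difference of the heat responses (0 to 11). FPKM near 0 limits every ratio given.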
